A study of Mus musculus with 10 samples.

Results

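Heat shock chaperones are the proteins that fold, refold and hold other proteins, and the genes described here are 35 that encode the chaperones of the cytosol and the mitochondrion, their partner proteins and the transcription factor HSF1. They were taken as the rows of the deposited expression table whose gene symbol is on a list of 35 symbols, and all 35 were found among 56691 genes. RNA was sequenced from the epithelium of the mouse esophagus in 10 libraries, 5 of wild-type mice (WT) and 5 of mice of the genotype p63CreERT2;Mst1loxp/loxp;Mst2-/-, called knockout here. Mst1 and Mst2 are kinases of the Hippo pathway. The knockout mice have null alleles of Mst2 in all cells, whereas their floxed Mst1 is to be removed by a Cre that needs tamoxifen and carries the name of p63, the transcription factor of basal squamous cells, so that only cells with this Cre should lose it. The wild-type mice were given the same tamoxifen course, given per the labels at 100 mg/kg as 3 doses every 2 weeks, and the tissue was collected after about 8 weeks. Per the labels, muscle and mesenchyme were taken off before extraction. The sources used here give neither age nor strain. Since the labels do not say whether every library is its own mouse, the p-values cover the spread between libraries only.

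Chaperones of the HSP70 class bind unfolded stretches of protein in a cycle driven by ATP, which J proteins start and nucleotide exchange factors such as HSP110 and BAG proteins complete. HSP70 hands some clients to HSP90, which matures kinases and hormone receptors with the help of cochaperones, and the ring-shaped CCT complex folds actin and tubulin. The chaperonin HSP60 and its lid HSP10 fold imported proteins in the mitochondrial matrix, and small heat shock proteins hold unfolded proteins without ATP. Under heat or other protein stress HSF1 binds heat shock elements, which are inverted repeats of the letters GAA, and raises transcription of many of these genes. In squamous epithelium the small heat shock proteins are known to be made in the differentiating layers.

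The estimated depth was 13060000 to 16440000 fragments, and 10878 to 11606 genes reached 1 FPKM in a library. FPKM, the fragments of a gene scaled by its length and by the library total, is the unit of all levels below, and it allows levels of different genes to be compared per length. The gene of Mst2, whose symbol is Stk3, was at 2.08 to 3.48 FPKM in wild type and 0.05 to 0.25 FPKM in knockout, and that of Mst1, whose symbol is Stk4, at 16.96 to 22.7 and 12.2 to 17.4 FPKM, which says nothing of exons lost from within the gene. All 12 markers of squamous epithelium were present, with Krt13 at 33902 FPKM or more. Of these 12, Trp63, the gene of p63, was lower in knockout (38.8 ± 5.45 and 22.6 ± 3.58 FPKM, SD, 5 libraries each; log2 fold change -0.76, limma adjusted p = 0.00293), and its part in the chaperone levels was not tested. Markers of skeletal muscle, of which 2 of 20 reached a mean of 1 FPKM, summed to 5.11 to 6.78 FPKM in wild type and 6.70 to 11.9 FPKM in knockout, and the muscle genes Des, Ttn, Myh1, Myh2 and Myh4 were listed at 0 in all libraries. Smooth muscle markers summed to 3.39 to 8.69 and 3.24 to 5.19 FPKM, led by Smtn, and endothelial markers to 0.900 to 1.55 and 1.06 to 1.40 FPKM, led by Esam. Of 15 fibroblast markers only Dcn reached a mean of 1 FPKM, and the sum was 4.46 to 14.1 FPKM in wild type and 0.130 to 1.14 FPKM in knockout. Immune markers, of which 6 of 18 reached a mean of 1 FPKM, summed to 16.6 to 79.9 FPKM in wild type and 33.5 to 496 FPKM in knockout, led by S100a8 at 1.65 to 463 FPKM. The part of these cells in the results below was not tested beyond the covariate named with the counts, which leaves out the immune markers.

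Promoter sequences show which of the genes carry perfect heat shock elements beside their start sites, and they are printed because 3 of the 4 genes with the longer runs were higher in knockout. RefSeq windows of 250 bases before to 50 bases after each start (build GRCm38.p6, while the expression table was made on mm9) were found for 27 of the 35 genes, and none for Cct4, Cryab, Hsf1, Hsp90aa1, Hsp90ab1, Hspa8, Hspa9 and St13. The windows were searched for 3 alternating units, GAANNTTCNNGAA or its reverse complement TTCNNGAANNTTC, overlaps allowed. Such a run was found for 4 of the 27 genes, Chordc1, Hspd1, Hspe1 and Hsph1, and for 0.662% of the 27025 genes with a window. Hspd1 and Hspe1 lie head to head and share their run, which occupies bases -89 to -72 before the start of Hspe1. The stretch between the downstream start of Hspd1 on the minus strand and the start of Hspe1 on the plus strand, chr1:55087933-55088147, is shown on the plus strand with the run in capitals, followed by the stretches of Chordc1 (chr9:18292207-18292286, plus strand) and Hsph1 (chr5:149636279-149636308, minus strand), where the runs lie at the start itself or just after it.
Hspe1 and Hspd1: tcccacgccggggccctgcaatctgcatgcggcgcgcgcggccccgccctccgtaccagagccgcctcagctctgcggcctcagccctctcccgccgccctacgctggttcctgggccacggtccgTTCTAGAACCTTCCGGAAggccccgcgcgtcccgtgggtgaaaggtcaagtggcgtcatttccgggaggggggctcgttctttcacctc
Chordc1: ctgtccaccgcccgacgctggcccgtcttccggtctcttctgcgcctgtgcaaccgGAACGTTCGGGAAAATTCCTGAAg
Hsph1: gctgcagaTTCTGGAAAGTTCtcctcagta

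The inducible HSP70 genes Hspa1a and Hspa1b, which stand close together on chromosome 17, have promoter windows that are the same at 296 of 300 bases. Each holds a run of 2 units (GAANNTTC, in capitals) at bases -104 to -97. The 80 bases around it are identical in both, at chr17:34972217-34972296 for Hspa1a and chr17:34959299-34959378 for Hspa1b, minus strand. They are shown because this pair is listed at different levels, although the division of reads between the 2 genes is uncertain.
Hspa1a and Hspa1b: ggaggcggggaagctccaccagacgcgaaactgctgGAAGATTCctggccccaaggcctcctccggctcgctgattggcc
Runs of 2 units, GAANNTTC or TTCNNGAA, were present for 15 of the 27 genes and for 17% of all genes with a window. A match is a description of these letters and not a bound site.

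Chaperone genes of most roles rose in the knockout epithelium, and none passed the test as lower. All 35 passed the filter of 1 FPKM in at least 5 libraries, and 13 were higher in knockout, which is 37.1% of them, against 7.90% of the 11386 genes tested (limma on log2(FPKM + 1), Benjamini-Hochberg adjusted p under 0.05). By the same test 0 were lower, against 4.96% of all genes tested. An unadjusted p under 0.05, in either direction, was found for 29.7% of all genes tested. Among the 35 genes there were 22 with a positive and 2 with a negative difference at this cut. The 2 were Hspb8 and Cdc37. The median log2 fold change, knockout minus wild type, was 0.31 for the 35 genes and 0.06 for all genes tested. In 10 genes every knockout library lay above every wild-type library, a pattern found for 6.62% of all genes, and Cdc37 was the only gene with every knockout library below. The 35 genes were chosen with earlier results of these data known. These shares and medians therefore describe the list and do not test it. The changes were spread over the mitochondrial chaperones (4 of 4 higher), the HSP90 pair (1 of 2), the cochaperones (3 of 7), J proteins (2 of 4), HSP110 and BAG proteins (2 of 4) and CCT (1 of 7), while none of 3 HSP70 genes and none of 3 small heat shock proteins passed. The plot of all genes by library shows the level of each gene in every library beside the wild-type mean.

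**Figure D1:**
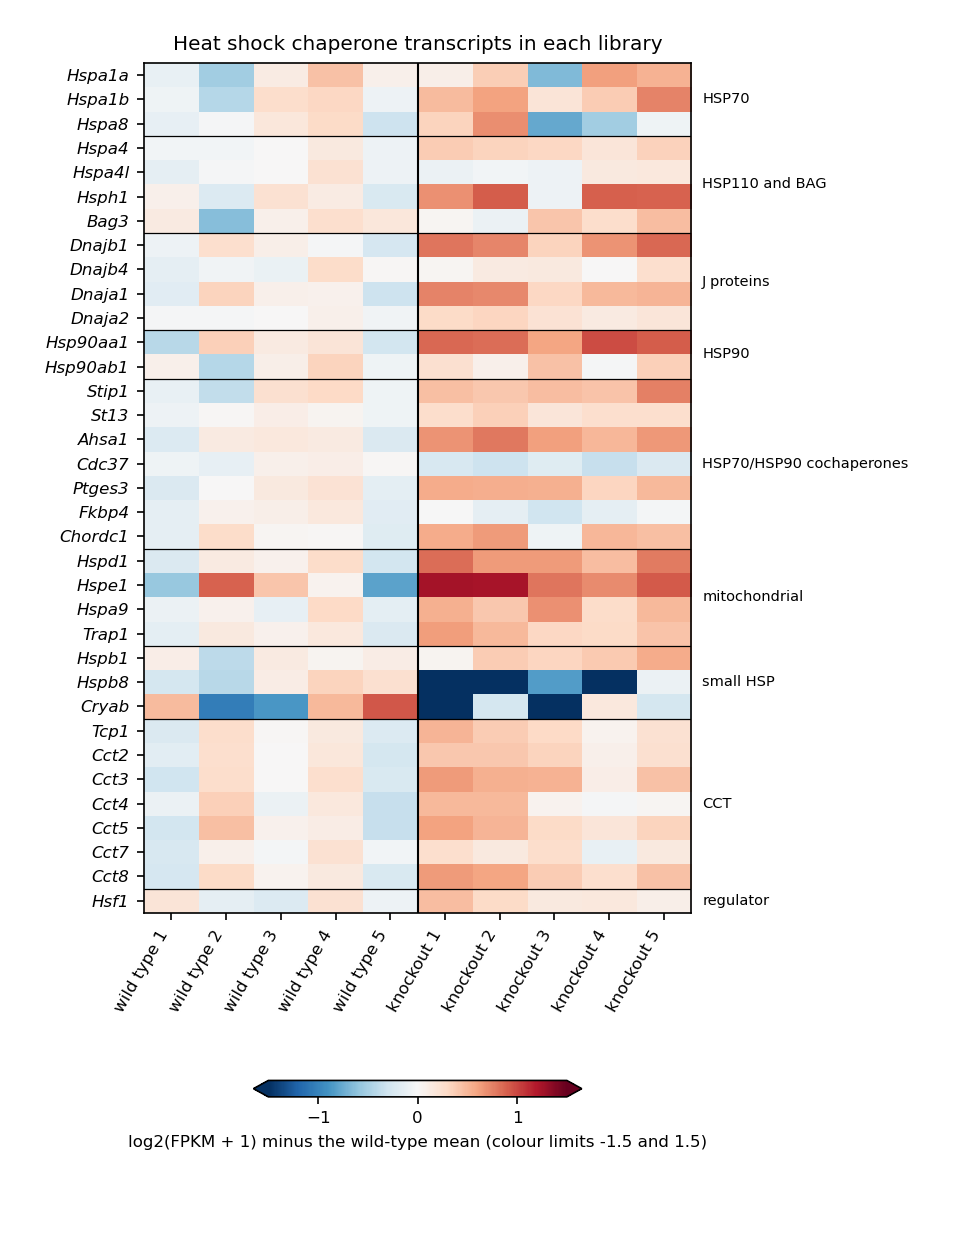
Level of each of the 35 genes (rows, grouped by role) in each library (columns), as log2(FPKM + 1) minus the mean of the 5 wild-type libraries; red is higher and blue lower, with colours capped at -1.5 and 1.5. The mitochondrial rows and those of Hsp90aa1 and Dnajb1 are red in most or all knockout libraries, and Hspb8 and Cryab are blue in knockout 1.

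The number of higher genes depended on single libraries and on the scaling. It was 5 without wild type 1, wild type 5 or knockout 1, 6 without knockout 5, 8 without knockout 2 and 9 to 16 without each of the others. Higher calls among all genes numbered 900 with every library, 495 without wild type 1, 436 without wild type 5 and 538 without knockout 1. They numbered 529 without knockout 5, 674 without knockout 2 and 572 to 1091 without each of the others. Ahsa1, Dnajb1, Hsp90aa1, Hspd1 and Ptges3 were higher in each of these 10 comparisons. Higher genes made up 61.4% of all calls as deposited, 46.6% when scaled by median ratios and 47.9% when quantiles were equalized. Among all genes these scalings gave 651 and 685 higher and 746 lower each. Among the chaperones 8 were then higher by either scaling, with 1 and 2 lower. A score of muscle, fibroblast and endothelial markers was 0.208 to 0.254 in the wild-type and 0.171 to 0.210 in the knockout libraries (mean log2 value), so that it nearly separates the groups. With it as covariate limma called 97 of all genes higher, where 900 were called without it, and 0 chaperones. Of the chaperones 8 had an unadjusted p under 0.05 and a positive difference, a count with no share of all genes at hand. The log2 fold changes of the 13 genes stayed positive, at 0.29 to 0.75. The part of these cells in the counts was not tested further.

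**Figure D2:**
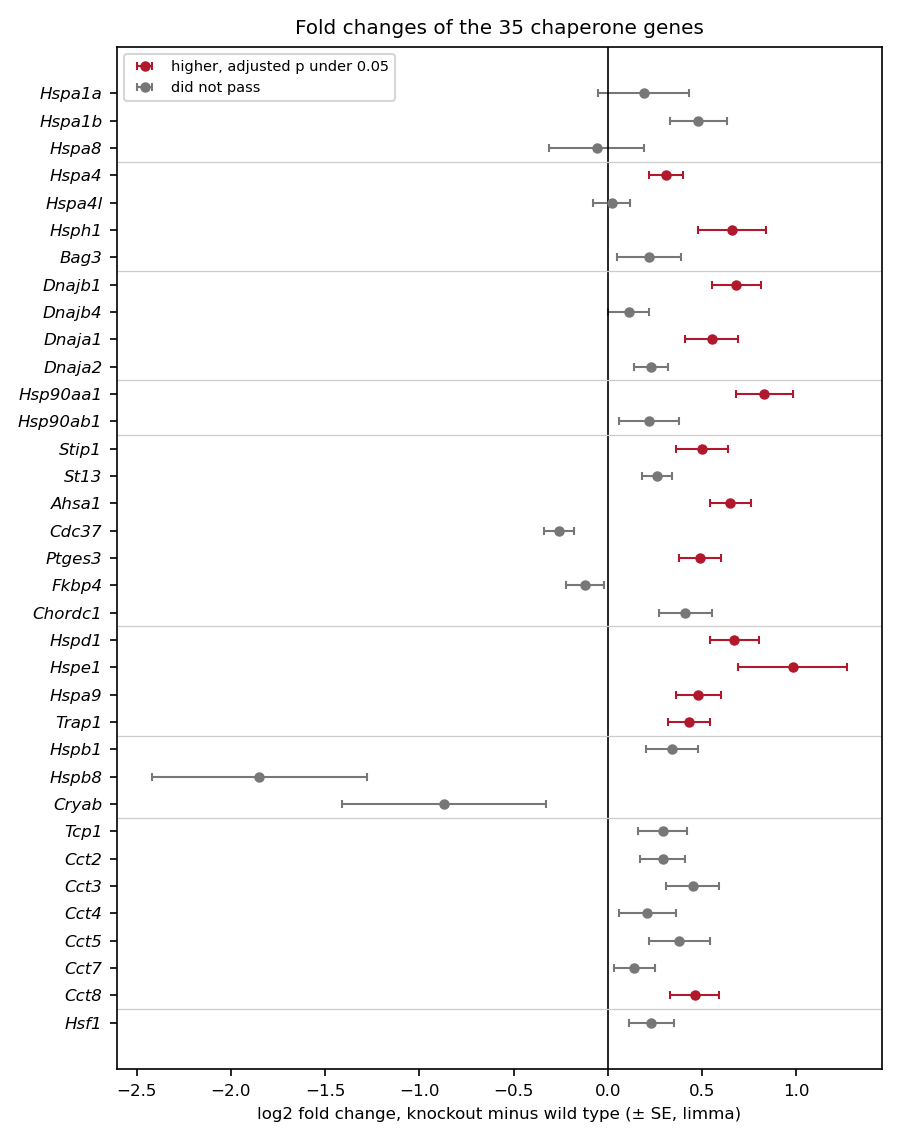
Log2 fold change of each of the 35 genes, knockout minus wild type (points), with its standard error (bars) from limma; red marks genes with an adjusted p under 0.05 and grey genes that did not pass. The 13 red points lie between 0.31 and 0.98, and the point farthest to the left is Hspb8 at -1.85.

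Hsf1, the gene of the heat shock transcription factor itself, did not pass the test. Its transcript was among the lowest of the group, at 3.26, 2.40, 2.22, 3.35 and 2.54 FPKM in wild type 1 to 5 and 4.14, 3.53, 3.14, 3.17 and 2.96 FPKM in knockout 1 to 5. The groups overlapped, and the log2 fold change was 0.23 (SE 0.12; limma adjusted p = 0.221). A transcript level does not show the activity of HSF1, which is set by its release from chaperones and by modification of the protein.

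Among HSP70 genes, the constitutive Hspa8 (ENSMUSG00000015656, chromosome 9) was the most abundant, and it did not pass the test as deposited. Hspa8 was at 117, 125, 143, 155 and 102 FPKM in wild type 1 to 5 and at 161, 207, 74.0, 88.3 and 121 FPKM in knockout 1 to 5. Knockout 1 and 2 lay above all wild-type libraries and knockout 3 and 4 below all of them, and the log2 fold change was -0.06 (SE 0.25; limma adjusted p = 0.900). The processed pseudogene Gm15459 (ENSMUSG00000100801, chromosome 5), an intronless copy that holds 0.386 of the 31-base sequences of Hspa8 and was chosen after its values were seen, was at 12.3, 12.03, 13.3, 15.3 and 10.1 FPKM in wild type. In knockout Gm15459 was at 175, 18.9, 222, 269 and 380 FPKM, so that 4 libraries were more than 10 times above wild type and knockout 2 was not. Its log2 fold change was 3.49 (SE 0.69; limma adjusted p = 0.0101). Knockout 2, with the lowest Gm15459 among the knockouts, was the library with the highest Hspa8.

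Reads of Hspa8 and of Gm15459 cannot be told apart where their sequences are the same, so the fragments of Gm15459 and of a second copy, Gm8355, were added to Hspa8 at their exon lengths in GENCODE M21, a step chosen after seeing the data. Hspa8 with its copies was then at 123, 132, 150, 163 and 108 FPKM in the wild-type libraries and 243, 218, 176, 212 and 297 FPKM in the knockout libraries, and every knockout library lay above every wild-type library. On the log2 scale it was 0.75 higher (SE 0.16; limma adjusted p = 0.00979), and it was 0.65 to 0.84 when each library was left out in turn, with adjusted p of 0.00766 to 0.0298. The sources used here do not name the exon lengths of the authors, and the combined level is therefore an estimate. Gm15459 was added knowing that it is higher in knockout, which raises the knockout sum by construction. Whether the pseudogene itself is transcribed was not tested.

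**Figure D3:**
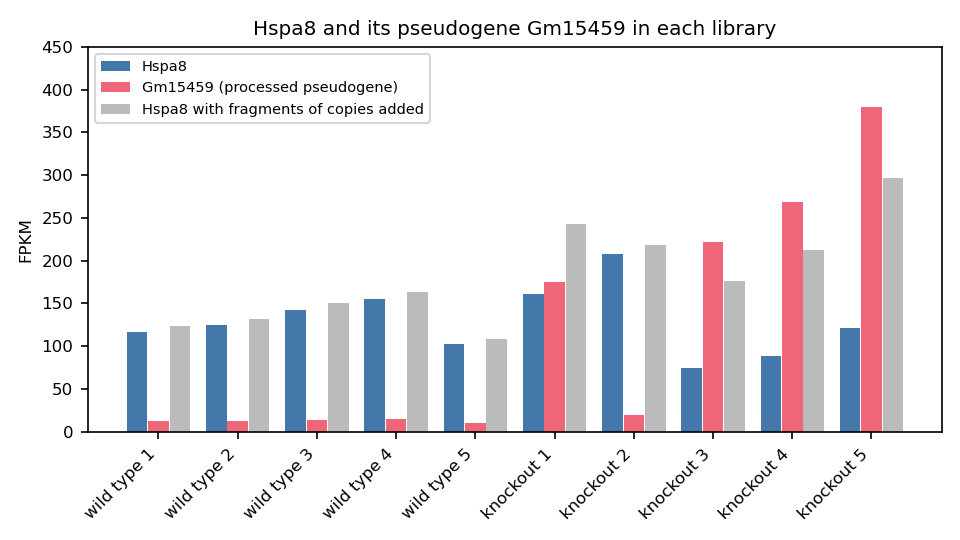
FPKM of Hspa8 (blue), of its processed pseudogene Gm15459 (red) and of Hspa8 with the fragments of its copies added at GENCODE M21 exon lengths (grey), in each library. The red bars reach 175 to 380 FPKM in knockout 1, 3, 4 and 5 and stay at 10.1 to 18.9 FPKM elsewhere, while the grey bars of all knockout libraries exceed those of wild type.

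Neither gene of the stress-inducible HSP70 pair passed the test. Hspa1b was at 41.4, 31.9, 52.1, 53.9 and 40.9 FPKM in the wild-type libraries and 60.8, 66.0, 49.8, 56.5 and 72.9 FPKM in the knockout libraries, where only knockout 3 lay inside the wild-type range. Its log2 fold change of 0.48 (SE 0.15) missed the threshold (limma adjusted p = 0.0591), and it passed without wild type 3 (0.0485) or wild type 4 (0.0404). Hspa1a had 7.46 to 15.4 FPKM in wild type and 6.63 to 17.6 FPKM in knockout (log2 fold change 0.19, SE 0.24; limma adjusted p = 0.648). Knockout 3 was the lowest library for both Hspa1a and Hspa8. Hspa1b exceeded Hspa1a in every library, by a ratio of 3.21 to 7.51, but 0.701 of the 31-base sequences of Hspa1a and 0.681 of those of Hspa1b occur in another gene, chiefly in each other, so that the division of reads between the pair is uncertain. With the fragments of the pair added together the log2 fold change was 0.43 (SE 0.16; limma adjusted p = 0.103).

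Of the nucleotide exchange factors of HSP70, the HSP110 genes Hspa4 and Hsph1 rose. Hspa4 had 40.5, 40.6, 42.1, 46.3 and 39.6 FPKM in the wild-type libraries and 54.5, 53.0, 51.9, 47.5 and 53.3 FPKM in the knockout libraries. The groups did not overlap, and the spread within each was small, with a coefficient of variation of 6.38% and 5.21%. Hspa4 had a log2 difference of 0.31 (SE 0.09; limma adjusted p = 0.0373). Hsph1, whose promoter run is printed above, had 6.78, 5.41, 7.61, 7.0 and 5.29 FPKM in the wild-type libraries and 10.8, 12.8, 6.01, 12.7 and 12.6 FPKM in the knockout libraries, and the log2 fold change was 0.66 (SE 0.18; limma adjusted p = 0.0367). Here 4 knockout libraries stood well above wild type, and knockout 3 lay within its range. Without knockout 3 the log2 fold change was 0.84 and the adjusted p 0.00167.

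The calls of both HSP110 genes rested on several libraries. Hspa4 lost its call without wild type 1, 3 or 5 or knockout 1, 2, 3 or 5 (adjusted p of 0.0639 to 0.0973), and Hsph1 without wild type 1, 2 or 5 or knockout 1, 2, 4 or 5 (0.0620 to 0.0944). The related Hspa4l was at 4.95 to 6.65 and 5.16 to 6.32 FPKM, and the log2 fold change was 0.02 (SE 0.10). Bag3, which joins HSP70 to small heat shock proteins and to autophagy, had 13.3 to 25.5 and 19.9 to 29.5 FPKM (log2 fold change 0.22, SE 0.17; limma adjusted p = 0.436).

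Among J proteins, the partners that deliver clients to HSP70, Dnajb1 and Dnaja1 rose. Dnajb1, the main stress-inducible J protein of the cytosol, had 53.5, 67.8, 60.3, 56.0 and 47.5 FPKM in the wild-type libraries and 99.7, 94.4, 71.8, 90.5 and 104 FPKM in the knockout libraries. No libraries overlapped, and knockout 3 was again the lowest of its group. On the log2 scale the knockout mean was 0.68 above wild type (SE 0.13; limma adjusted p = 0.00540), and it passed without each single library. Dnaja1, a farnesylated J protein, had 3.54, 5.46, 4.42, 4.38 and 3.14 FPKM in the wild-type libraries and 7.58, 7.47, 5.34, 6.19 and 6.29 FPKM in the knockout libraries. Only wild type 2 reached into the knockout range. Dnaja1 had a log2 difference of 0.55 (SE 0.14; limma adjusted p = 0.0211), and the call ended without wild type 1, wild type 5 or knockout 1 (adjusted p of 0.0523 to 0.0580). Dnaja1 shares 0.226 of its 31-base sequences with other genes, and with the fragments of its copy Gm15542 added the adjusted p was 0.0223.

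The related Dnaja2 was more than 10 times as abundant as Dnaja1 per length and varied little, at 80.6 to 88.8 FPKM in wild type and 92.3 to 106 FPKM in knockout. Its groups did not overlap, but the difference was small, and the log2 fold change was 0.23 (SE 0.09), and did not pass (limma adjusted p = 0.105). Dnajb4 was at 3.33 to 4.80 and 3.78 to 4.70 FPKM (log2 fold change 0.11, SE 0.11; limma adjusted p = 0.508).

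Of the HSP90 genes, the inducible Hsp90aa1 (ENSMUSG00000021270, chromosome 12) rose and the constitutive Hsp90ab1 did not pass. Hsp90aa1 had 25.1, 43.8, 37.3, 38.9 and 27.9 FPKM in the wild-type libraries and 62.4, 61.4, 51.7, 67.5 and 64.2 FPKM in the knockout libraries. Every knockout library lay above the highest wild-type library, and the knockout values were closer together than the wild-type values. Its fold change was 0.83 on the log2 scale (SE 0.15; limma adjusted p = 0.00417), 0.73 to 0.93 when each library was left out, and 0.84 with the fragments of its copies added, since Hsp90aa1 shares 0.515 of its 31-base sequences with other genes. Hsp90ab1, the most abundant of the 35 genes, had 409, 290, 413, 489 and 373 FPKM in the wild-type libraries and 460, 410, 528, 386 and 500 FPKM in the knockout libraries. These groups overlapped, and the log2 fold change was 0.22 (SE 0.16; limma adjusted p = 0.368). The ratio of Hsp90aa1 to Hsp90ab1 within a library was 0.0614 to 0.151 in the wild-type and 0.0979 to 0.175 in the knockout libraries, a difference in the ratio that did not pass (exact permutation test, two-sided, n = 5 and 5, p = 0.0556, or 0.167 adjusted over the 3 ratios examined).

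Among cochaperones of HSP70 and HSP90, the genes Ahsa1, Ptges3 and Stip1 rose. Ahsa1 (ENSMUSG00000021037), the activator of the HSP90 ATPase, had 10.6, 13.7, 13.9, 13.7 and 10.5 FPKM in the wild-type libraries and 20.4, 22.2, 19.5, 17.8 and 19.9 FPKM in the knockout libraries. The groups did not overlap, and the gap between them was wider than the SD of either. Ahsa1 had the smallest adjusted p of the 35 genes, 0.00277 (limma log2 fold change 0.65, SE 0.11), and 0.00335 to 0.00926 when each library was left out. Ptges3, which encodes p23 and holds HSP90 in its closed form, had 25.2, 29.7, 32.7, 34.3 and 26.5 FPKM in the wild-type libraries and 44.0, 43.4, 43.0, 37.1 and 41.7 FPKM in the knockout libraries, without overlap. On the log2 scale it was 0.49 higher (SE 0.11; limma adjusted p = 0.0119). Its copy Ptges3-ps, which holds 0.203 of the 31-base sequences of Ptges3, was the more abundant per length, at 72.5 to 99.5 and 108 to 139 FPKM, and the log2 fold change of Ptges3 with the copy added was 0.50.

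Stip1, the adaptor known as HOP that bridges HSP70 and HSP90, had 40.7, 34.1, 52.2, 54.7 and 42.3 FPKM in the wild-type libraries and 60.7, 58.9, 61.2, 59.8 and 75.5 FPKM in the knockout libraries. The groups did not overlap, and knockout 5 stood above the other knockout libraries. On the log2 scale the knockout mean was 0.50 above wild type (SE 0.14; limma adjusted p = 0.0327), and the call ended without wild type 1 or 5 or knockout 1, 3 or 5 (adjusted p of 0.0573 to 0.0823). St13, an HSP70 partner known as HIP, also had groups without overlap, 10.6 to 12.03 and 12.8 to 14.7 FPKM, but missed the threshold (log2 fold change 0.26, SE 0.08; limma adjusted p = 0.0536; 0.0494 without wild type 2). Chordc1, with the longest promoter run printed above, had 7.03, 9.61, 7.99, 7.87 and 6.72 FPKM in the wild-type libraries and 11.98, 12.7, 7.38, 11.4 and 11.0 FPKM in the knockout libraries. As with Hsph1, knockout 3 lay within the wild-type range and the other 4 above it. The log2 fold change of Chordc1 was 0.41 (SE 0.14; limma adjusted p = 0.0722), and it passed without knockout 3 (0.0141) or wild type 2 (0.0429).

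Cdc37 and Fkbp4 had values against this direction. Cdc37 (ENSMUSG00000019471), which loads protein kinases onto HSP90, had 27.5, 26.5, 30.5, 30.98 and 29.2 FPKM in the wild-type libraries and 24.4, 23.1, 25.3, 22.5 and 24.6 FPKM in the knockout libraries. All knockout libraries were below all wild-type libraries, a pattern found for 3.88% of the genes tested. The log2 fold change was -0.26 (SE 0.08) and missed the threshold (limma adjusted p = 0.0626), which it passed without wild type 2 (0.0354), when scaled by median ratios (0.0313) and with quantiles equalized (0.0157). Fkbp4, the immunophilin FKBP52 of steroid receptor complexes, was at 50.8 to 64.0 and 46.4 to 57.1 FPKM (log2 fold change -0.12, SE 0.10; limma adjusted p = 0.458).

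The mitochondrial chaperones were the only role in which every gene was called higher. Hspd1 (ENSMUSG00000025980, chromosome 1), the gene of HSP60, had 62.9, 80.4, 76.7, 88.6 and 60.3 FPKM in the wild-type libraries and 131, 115, 114, 101 and 126 FPKM in the knockout libraries. The groups did not overlap, and the log2 fold change was 0.67 (SE 0.13; limma adjusted p = 0.00601), with 0.00527 to 0.0196 when each library was left out. Its head-to-head neighbour Hspe1 (ENSMUSG00000073676), the gene of HSP10, had 14.8, 42.2, 30.3, 23.3 and 12.4 FPKM in the wild-type libraries and 54.6, 54.3, 39.7, 37.1 and 43.2 FPKM in the knockout libraries. Wild type varied more than knockout, with coefficients of variation of 49.2% and 17.9%, and wild type 2 reached into the knockout range. The log2 fold change of Hspe1, 0.98, was the largest increase of the 35 genes and had a wide error (SE 0.29; limma adjusted p = 0.0444), and the call ended in 8 of 10 comparisons with a library left out, all but those without wild type 2 or 3 (adjusted p of 0.0513 to 0.107).

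Hspe1 shares 0.305 of its 31-base sequences with other genes, so its level is uncertain. The ratio of Hspe1 to Hspd1 was 0.206 to 0.524 in the wild-type and 0.342 to 0.474 in the knockout libraries (exact permutation test, two-sided, n = 5 and 5, p = 0.222). Hspd1 shares 0.531 of its 31-base sequences, and with its copy Hspd1-ps3 added its log2 fold change was again 0.67.

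Hspa9, which encodes mortalin, the HSP70 of the mitochondrial matrix and of the import motor, had 58.4, 64.7, 56.6, 76.2 and 55.6 FPKM in the wild-type libraries and 90.3, 81.9, 99.7, 75.4 and 87.0 FPKM in the knockout libraries. Only wild type 4 and knockout 4 crossed, and the log2 fold change was 0.48 (SE 0.12; limma adjusted p = 0.0221). Trap1, the mitochondrial HSP90, had 28.2, 34.7, 32.9, 35.3 and 26.9 FPKM in the wild-type libraries and 48.9, 44.5, 39.1, 38.5 and 42.5 FPKM in the knockout libraries, without overlap. Its log2 fold change was 0.43 (SE 0.11; limma adjusted p = 0.0266). Knockout 4 was the lowest knockout library and wild type 5 the lowest wild-type library for all 4 mitochondrial genes. The call of Hspa9 ended without wild type 1 or 5 or knockout 1, 3 or 5 (adjusted p of 0.0505 to 0.0630), and that of Trap1 without wild type 1 or 5 or knockout 1, 2 or 5 (0.0553 to 0.0728).

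**Figure D4:**
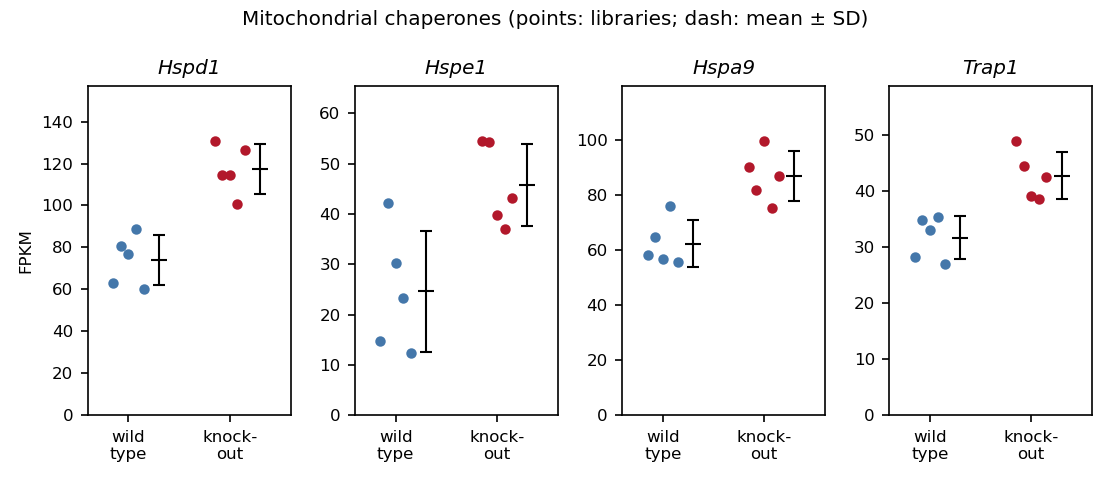
FPKM of the mitochondrial chaperone genes in each library (points, blue for wild type and red for knockout) with the mean and SD of each group (dash and bars). Hspd1 and Trap1 have no overlap between the groups, and Hspe1 in wild type spreads from 12.4 to 42.2 FPKM.

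The subunits of the CCT complex had small positive differences, and Cct8 passed the test. Cct8 had 55.8, 81.5, 69.2, 74.1 and 56.7 FPKM in the wild-type libraries and 104, 101, 87.3, 79.7 and 91.0 FPKM in the knockout libraries. Only knockout 4 fell within the wild-type range, and the log2 fold change was 0.46 (SE 0.13; limma adjusted p = 0.0383), a call that ended without wild type 1, 3 or 5 or knockout 1, 2, 3 or 5 (adjusted p of 0.0565 to 0.102). Of all genes tested 58.6% had a positive log2 fold change, and 29.7% had an unadjusted p under 0.05 in either direction. All 7 subunits had a positive log2 fold change, from 0.14 for Cct7 to 0.46, and 5 had an unadjusted p under 0.05. Cct3 was closest to the threshold among the rest, at 20.4 to 30.6 and 27.1 to 40.0 FPKM (log2 fold change 0.45, SE 0.14; limma adjusted p = 0.0582), and it passed without wild type 2 (0.0353), wild type 4 (0.0455) or knockout 4 (0.0295). Cct5 was the most abundant subunit per length, at 78.1 to 137 and 113 to 152 FPKM, and passed without wild type 2 (0.0339) and with quality weights (0.0376).

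The order of the libraries within a group was similar for most subunits. In wild type, 6 of the 7 were highest in wild type 2, and all were lowest in wild type 1 or 5. In knockout all 7 were lowest in knockout 4, and 6 were highest in knockout 1 or 2. The remaining subunits overlapped between the groups: Tcp1 was at 42.4 to 59.8 and 51.4 to 70.9 FPKM, Cct2 at 79.2 to 114 and 101 to 127 FPKM, Cct4 at 30.8 to 50.8 and 39.0 to 55.6 FPKM, and Cct7 at 18.5 to 26.1 and 20.4 to 26.6 FPKM. The adjusted p of these 4 was 0.141 to 0.437 (limma). Cct6a, the remaining general subunit of the ring and not among the 35 genes, was at 58.0 to 77.2 and 65.1 to 89.8 FPKM and did not pass either (log2 fold change 0.21, SE 0.12; limma adjusted p = 0.274).

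None of the small heat shock protein genes passed the test, and Hspb8 and Cryab had negative differences. Hspb8 (ENSMUSG00000041548, chromosome 5), a partner of Bag3, had 62.8, 56.6, 81.6, 95.5 and 89.4 FPKM in the wild-type libraries and 6.12, 8.66, 42.0, 19.5 and 71.3 FPKM in the knockout libraries. In knockout 1, 2 and 4 it was less than 0.4 times the lowest wild-type value, while knockout 5 lay inside the wild-type range. The coefficient of variation was 21.9% in wild type and 92.5% in knockout. The log2 fold change, -1.85, was the largest of the 35 genes in size but had an SE of 0.57 and missed the threshold (limma adjusted p = 0.0599). Without knockout 5 it was -2.29 (adjusted p = 0.0169). Hspb8 also passed with a pseudocount of 5, quantile normalization, no trend and robust steps, or quality weights (adjusted p of 0.0383 to 0.0485), and with the clock or the immediate early score as covariate (0.00534 and 0.000751). It did not pass without a filter (0.110), with a filter at 5 FPKM (0.0658), with a pseudocount of 0.1 (0.0689), when scaled by median ratios (0.0521) or with the muscle and mesenchyme covariate (0.159).

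Cryab, the alpha B-crystallin gene known from lens and muscle, varied within both groups, with 32.2, 10.7, 12.1, 32.6 and 44.7 FPKM in the wild-type libraries and 6.11, 19.0, 4.05, 25.7 and 18.9 FPKM in the knockout libraries. The log2 fold change was -0.87 (SE 0.54; limma adjusted p = 0.312). Its partly overlapping neighbour Hspb2 was at no more than 0.08 FPKM in any library. With the muscle and mesenchyme score as covariate the difference of Cryab was 0.34. Among muscle markers Tnni2 was at 3.37 to 7.93 FPKM and Smtn at 2.18 to 7.49 FPKM, while 9 of 20 skeletal muscle markers were listed at 0 in all libraries, and the part of muscle in the Cryab level was not tested. Hspb1, the gene of mouse HSP25 and the most abundant of the 3, had 246, 174, 251.6, 236 and 246 FPKM in the wild-type libraries and 236, 299, 287, 301 and 336 FPKM in the knockout libraries. Apart from knockout 1 the knockout libraries lay above wild type, and the log2 fold change of 0.34 (SE 0.14) did not pass (limma adjusted p = 0.126). Hspb1 shares 0.554 of its 31-base sequences with other genes, chiefly with Hsp25-ps1, which was at 8.20 to 14.7 FPKM. These are bulk samples, so fewer cells that express a gene and less RNA of it per cell cannot be told apart.

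**Figure D5:**
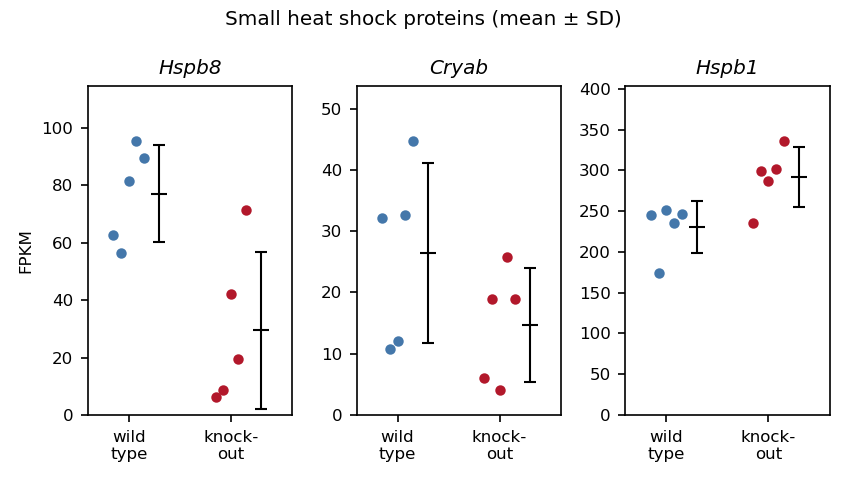
FPKM of the small heat shock protein genes Hspb8, Cryab and Hspb1 in each library (points, blue for wild type and red for knockout) with the mean and SD of each group (dash and bars). Hspb8 in knockout spreads from 6.12 to 71.3 FPKM against 56.6 to 95.5 FPKM in wild type, and Cryab spreads widely in both groups.

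Genes with a run of 3 heat shock element units in their promoter window were set beside the others. Of the 4, 3 were higher in knockout, against 7.90% of all genes tested, and the median log2 fold change was 0.67. Hspd1 and Hspe1 among them share 1 run. The calls of Hspe1 and Hsph1 ended in 8 and 7 of the comparisons with a library left out. Of the 23 other genes with a window, 8 were higher, with a median of 0.31. The difference between these sets was not tested, and the share called among all genes with such a run is not at hand. Ahsa1, Cct8, Dnajb1, Hspa4, Ptges3, Stip1 and Trap1 were called higher without a run of 2 or 3 perfect units in their windows, which says only that these letters are not there.

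At an adjusted p under 0.05, further chaperone genes were called higher at about the rate of all genes. A list of 69 further genes, made up of J proteins, BAG proteins, prefoldin, mitochondrial proteases and HSP90 cochaperones, was found in full, and 61 were tested. Of these 5 were higher, or 8.20%, close to the 7.90% of all genes, and 2 were lower. An adjusted threshold of 0.1 gave 15 higher, against 1533 of the 11386 genes tested. An unadjusted p under 0.05 (limma) was found for 26 of the 61, 20 positive and 6 negative, against 29.7% of all genes. Ppid, the cyclophilin that binds HSP90, rose from a mean of 12.6 ± 1.44 FPKM to 19.1 ± 1.89 FPKM (SD, 5 libraries each), at a limma adjusted p of 0.00447. Tomm70a, the import receptor that docks HSP70 and HSP90, Hspbp1, a nucleotide exchange factor, Ruvbl2, an ATPase of the R2TP complex that works with HSP90, and Pfdn4, a prefoldin subunit, also rose. Clpx, the unfoldase of the mitochondrial ClpXP protease, fell from 35.5 ± 4.92 to 25.0 ± 1.65 FPKM (limma adjusted p = 0.0151). Hspa2, an HSP70 best known from testis, fell from 1.51 ± 0.546 to 0.548 ± 0.268 FPKM (limma adjusted p = 0.0199). Grpel1, the exchange factor of Hspa9, had 17.6 ± 3.66 and 21.2 ± 1.15 FPKM, the ubiquitin ligase Stub1 13.0 ± 2.38 and 12.4 ± 2.00 FPKM, and Hsf2 0.888 ± 0.177 and 1.17 ± 0.127 FPKM, and none of these 3 passed. The count of higher genes was 1 without wild type 1, wild type 5, knockout 1 or knockout 5, 2 without knockout 3, 8 without wild type 4 and 13 without wild type 2. The higher genes among all tested then numbered 436 to 538, 572, 952 and 1091, in the same order.

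The libraries differed in other ways that lie beside these results. The clock output gene Dbp was at 8.45 FPKM or more in wild type 1, 2 and 4 and knockout 1 and 2 and at 1.73 FPKM or less in the others. The median log2 difference of all 35 genes, knockout minus wild type, was 0.38 within the 5 libraries of high Dbp (3 wild type and 2 knockout) and 0.31 within the 5 of low Dbp (2 and 3), given as values with no test. The medians of all genes tested within these classes are not at hand, so no background stands beside these values. Hspb8 had log2 differences of -3.09 and -1.11 in these classes, and Hspa8 as deposited 0.47 and -0.38. With the score of 4 clock output genes as covariate 11 of the 35 genes were higher, 10 of them among the 13. Among all genes 882 were then higher.

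Immediate early genes, which respond to handling as well as to growth signals, had a mean log2 value of 3.04 to 3.33 in wild type and 3.26, 3.59, 3.97, 3.47 and 3.98 in knockout 1 to 5. Of 17 tested, 5 were higher in knockout, or 29.4%, against 7.90% of all genes tested. Among the 5 were Ier3, Zfp36 and Junb. None was lower, against 4.96% of all genes tested. Knockout 3 and 5 had the highest immediate early values and also the most Hspb8 among the knockouts. Knockout 3 had the least Hsph1, Chordc1, Dnajb1 and Hspa8 (6.01, 7.38, 71.8 and 74.0 FPKM). In knockout 5 these genes were at 12.6, 11.0, 104 and 121 FPKM, and its Dnajb1 was the highest of the group. With the immediate early score as covariate 5 chaperone genes were higher, of which Ahsa1, Dnaja1, Dnajb1 and Hsp90aa1 are among the 13 and Chordc1 is not. Among all genes 344 were then higher, where 900 were called without it. The part of handling in the chaperone levels was not tested. Of 4 genes listed for RNA-binding proteins with a response to cold, 1 passed the test. Cirbp fell, from 12.2, 12.9, 7.09, 12.9 and 14.2 FPKM in wild type to 5.73, 7.0, 11.2, 5.40 and 5.58 FPKM in knockout (log2 fold change -0.70, SE 0.21; limma adjusted p = 0.0453). Knockout 3 had the highest Cirbp of its group and wild type 3 the lowest. Rbm3 was at 25.2 to 38.6 and 27.8 to 44.5 FPKM (log2 fold change 0.16; limma adjusted p = 0.531), and Srsf5 and Rbmx had log2 fold changes of -0.08 and -0.17 (limma adjusted p = 0.778 and 0.470).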

How the data were processed

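Per the file headers, the authors deposited FPKM with 2 decimals and 1 column for each library. The submitters' processing notes name the build mm9, cutadapt, HTSeq 0.6.1 and HISAT2 2.0.1, and their settings, annotation and strand use were not found in the labels, so reads of overlapping genes cannot be told apart. Fragment totals were estimated as those at which short single-exon genes give whole fragments (98.2% to 98.7% of values, against 9.2% to 10.9% by chance). GENCODE M21 (GRCm38) gave chromosomes, exon lengths and shared 31-base sequences, and RefSeq the promoters.

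The 11386 genes that reached 1 FPKM in 5 or more libraries were fitted by genotype on log2(FPKM + 1), a scale that understates changes of low genes. The fit used limma 3.58.1 (R 4.3.3) with trend and robust options and Benjamini-Hochberg adjustment at 0.05. The test was checked on simulated data. Figures used matplotlib 3.10.9 in Python 3.11.15. The 35 genes and all lists were chosen with earlier results of these data known. All 35 genes are named. Of the other chaperones all called genes and Cct6a, Hsf2, Grpel1 and Stub1 are named, and of the remaining lists up to 3 genes by p or the most abundant. Gm15459, Gm8355, Gm15542, Hsp25-ps1, Hspb2, Des, Ttn, Myh1, Myh2, Myh4, Rbm3, Srsf5, Rbmx, Tnni2, Smtn and Dbp were named after their values were seen. The alternatives are pseudocounts, filters, scalings, weights, covariates, thresholds and leaving out each library; adding the fragments of copies was chosen after seeing the data. Some results are not reported here.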

Additional observations from a re-analysis of the deposited data

Results flagged for a closer look

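In groups of 5 libraries a value was singled out where its gap to the nearest other exceeded 0.71 of the range of the group, Dixon's critical value. Of 70 groups of the chaperone genes 3 met this, and chance alone gives about 1 in 20. Bag3 was at 13.25 FPKM in wild type 2 against 22.4 to 25.5 FPKM in the other wild-type libraries, and Hspb1 was at 174.18 FPKM in the same library against 236 to 251.6 FPKM. Stip1 was at 75.45 FPKM in knockout 5 where the rest of the knockouts had 58.9 to 61.2 FPKM.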

How the results depend on the processing

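Of the 35 chaperone genes 13 were called higher and 0 lower, of all tested genes 900 and 565, and of the other chaperone genes 5 and 2. Leaving out each library gave 5 to 16 and 0 to 1 chaperone genes, 436 to 1091 and 357 to 679 of all genes, and 1 to 13 and 1 to 3 other chaperone genes. Among settings that changed the number of higher chaperone genes by over 1.5 times, 8 were called with median ratios, quantile normalization or the replicate block. Without genes that share sequence 8 of 26 were called. That step took out 9 members, 5 of them called, and the other 8 calls were all kept. There were 5 without a filter or with the immediate early covariate, 4 at a threshold of 0.01, and 0 with the muscle and mesenchyme covariate. Lower calls numbered 1 with a pseudocount of 5, median ratios, no trend, the replicate block, the clock covariate or the immediate early covariate, and 2 with quantile normalization, quality weights or a threshold of 0.1. The replicate block ended the calls of Cct8, Hspa4, Hspa9, Hsph1 and Trap1 and added Hspb8 as lower (adjusted p = 0.0436). Whether the replicate numbers pair the libraries cannot be settled by correlation. Deviations of same-numbered libraries correlated at 0.061, 0.423, 0.194, -0.241 and 0.107 for replicates 1 to 5. Only wild type 2 had its best match in the knockout library of its own number. Of all genes 511 were higher without a filter, 1390 with quality weights, 97 with the mesenchyme covariate, 344 with the immediate early covariate, 293 at 0.01 and 1533 at 0.1, and 329 were lower with a filter at 5 FPKM, 82 and 236 with these covariates, 245 at 0.01 and 887 at 0.1. Of the other chaperones 1 was higher without a filter, with the immediate early covariate or at 0.01, 3 with either scaling, 14 with weights, 2 with the replicate block, 0 with the mesenchyme covariate and 15 at 0.1, while 1 was lower without a filter or with that at 5 FPKM, and 0 with either of these covariates or at 0.01.

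Among genes that did not pass, Hspa8 changed sign with the mesenchyme (0.04), clock (0.17) or immediate early covariate (0.25) and without wild type 4 (0.01), knockout 3 (0.11) or knockout 4 (0.05), with a range of -0.25 to 0.11 over the libraries left out, and it was 0.75 (limma adjusted p = 0.00979) with its copies added. Hspa4l was -0.04 with either scaling, -0.02 with the clock and -0.03 with the immediate early covariate, and -0.01 without wild type 1, knockout 4 or knockout 5, with a range of -0.01 to 0.08. With the immediate early covariate Bag3 was -0.15, Dnajb4 -0.02 and Hsp90ab1 -0.04, and with the mesenchyme covariate Cryab was 0.34. The cause of these changes was not tested. Hsf1, Dnajb4 and Dnaja1 have the lowest levels and rest on the fewest fragments per length.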
